A study of Mus musculus with 14 samples.

Results

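Regulatory T cells (Tregs) are held in their lineage by the transcription factor Foxp3, and several further factors split them into subsets. The messages of 9 such factors (Foxp3, Ikzf2, Ikzf4, Gata3, Rora, Tbx21, Prdm1, Bach2 and Lef1) are described here in intestinal Tregs of mice with or without JunB, a DNA-binding subunit of AP-1. The genes were chosen by name and found by Ensembl identifier, and all 9 were present among the 55487 gene IDs counted for the inducible line and the 53801 counted for the Foxp3-YFP-cre line. All 14 RNA-seq libraries of the series were used, which fall into 6 groups.

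Peyer's patch (PP) Tregs were sorted as CD4+Foxp3(YFP)+ cells, with 1 further surface gate, from untreated males, generally 8 to 12 weeks old. Their genotypes were JunB F/+ Foxp3YFPcre (HET, 2 libraries) and JunB F/F Foxp3YFPcre (KO, 2 libraries). In the inducible line, mice carried JunB F/+ (iHET) or JunB F/F (iKO) with Foxp3ERT2cre and Rosa26-tdTomato+ and received 3 oral doses of 8 mg tamoxifen in olive oil, on days 0, 1 and 3, and tissue was taken on day 7, at 10 to 12 weeks of age. From these mice, TCRb+CD4+Foxp3(EGFP)+tdTomato+ cells were taken from the colon lamina propria (3 iHET and 3 iKO libraries), and the same cells with the further gate CD25- from PP (2 iHET and 2 iKO libraries). In each group of the inducible line, replicate 1 was a Foxp3ERT2cre+ male and the others were Foxp3ERT2cre+/+ females. HET and iHET controls also carry 1 floxed Junb allele in Tregs that express Cre, so every comparison is of 1 floxed Junb allele with 2. Cre is driven from the Foxp3 locus in both lines, and the study notes that the YFP-cre driver can recombine outside Tregs and in the germline. Organ and CD25 gate differ together in the inducible line and cannot be told apart. All of the values are RNA per sorted population, in which fewer cells of a subset and less RNA per cell cannot be told apart.

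As background, Foxp3 is the factor that defines Tregs, and Helios (Ikzf2) and Eos (Ikzf4) are Ikaros-family zinc-finger proteins that act with it and stabilize Treg identity. GATA3 (Gata3) marks the ST2+ Tregs of barrier tissues, RORα (Rora) is a nuclear receptor of tissue lymphocytes including Tregs, innate lymphoid cells and Th17 cells, and T-bet (Tbx21) marks Tregs that restrain type 1 responses. Blimp-1 (Prdm1) is a repressor typical of effector Tregs, whereas BACH2 (Bach2) and LEF1 (Lef1) are typical of resting T cells in lymphoid organs. BACH2 is itself a bZIP protein that binds sites closely resembling those of AP-1.

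Libraries held between 26274861 and 35508709 counts, and each of the 9 genes passed the expression filter in every comparison. Counts are given as CPM, scaled by TMM to a common library total, and the lowest value of a member, 12.1 CPM of Tbx21 in a PP HET library, is far above the limit of 3 counts, which is 0.0845 to 0.114 CPM by library. Junb itself was measured at 4752 and 5329 CPM in PP HET but only 606 and 561 CPM in PP KO libraries, at 5547 and 4182 CPM in CD25- PP iHET and 891 and 911 CPM in iKO, and at 6865, 8471 and 7514 CPM in colonic iHET and 1012, 993 and 1029 CPM in iKO, so each library matched its genotype. Junb message was lower but still present in every KO and iKO library. The libraries carried T cell genes as the gates ask. Trac was at 1186 to 1373 and Cd4 at 1070.1 to 1187 CPM in the colonic iHET libraries, and Cd8a at 0.689 to 1.14 CPM. The CD25- PP libraries held more Cd8a, at 2.65 and 13.6 CPM in iHET and 2.13 and 23.2 CPM in iKO replicates 1 and 2. In the Foxp3-YFP-cre line Cd8a was at 6.65 and 10.4 CPM in PP HET and 7.86 and 11.5 CPM in PP KO. Il2ra, which encodes CD25, was at 185 to 239 CPM in CD25- PP and 561 to 752 CPM in colonic libraries, on the side that the gate sets. Of the CD25- PP libraries, iKO replicate 2 stood apart in heat-shock genes, with 67.1 and 767 CPM of Hspa1a in iKO replicates 1 and 2 against 50.4 and 58.7 in iHET, while the colonic libraries held 523 to 1227 CPM in iHET and 208 to 1387 CPM in iKO. Of the PP libraries of the Foxp3-YFP-cre line, HET replicate 2 was high in the same genes, with 168 and 455 CPM of Hspa1a in HET replicates 1 and 2 against 146 and 159.9 CPM in KO.

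On GRCm38, Foxp3 lies on the plus strand of the X chromosome (chrX:7573644-7595245) and the Ikaros-family genes on the minus strands of chromosomes 1 (Ikzf2, chr1:69531214-69687245) and 10 (Ikzf4, chr10:128630843-128645991). The subset factors are Gata3 (chr2:9857078-9890034, minus), Rora (chr9:68653786-69388246, plus) and Tbx21 (chr11:97098071-97115331, minus). The effector and resting factors are Prdm1 (chr10:44437177-44528501, minus), Bach2 (chr4:32238804-32586108, plus) and Lef1 (chr3:131110471-131224356, plus). Each is protein-coding, and reads over its merged exons were counted.

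Because longer messages collect more reads, levels were compared between genes only per kilobase of merged exon (RPKM). On that scale Gata3 was the highest of the 9 in every group, from 129 ± 13.1 (SD, n = 2) in PP HET to 227 ± 40.6 (n = 3) in colonic iHET Tregs, and Bach2 was the lowest of the 9 in every group, from 3.69 ± 0.371 (n = 3) in colonic iKO to 6.83 ± 2.14 (n = 2) in CD25- PP iHET. In PP HET Tregs the order below Gata3 was Ikzf4 at 39.3 ± 1.05, Ikzf2 at 34.5 ± 0.637, Lef1 at 22.9 ± 2.54, Prdm1 at 19.4 ± 1.03, Foxp3 at 18.9 ± 0.977, Rora at 16.6 ± 4.69, Tbx21 at 6.12 ± 1.79 and Bach2 at 4.48 ± 0.150 RPKM (n = 2 each). Neighbours from Lef1 to Rora differed by less than the sum of their SDs, as did Tbx21 and Bach2. In colonic iHET Tregs Rora came directly after Gata3, at 67.6 ± 8.81 RPKM, followed by Ikzf4 at 33.4 ± 5.71, Foxp3 at 30.0 ± 4.46, Tbx21 at 28.5 ± 3.99, Ikzf2 at 27.2 ± 6.71, Prdm1 at 24.7 ± 4.52, Lef1 at 11.6 ± 3.22 and Bach2 at 4.13 ± 1.74 RPKM (n = 3 each), and no neighbours from Ikzf4 to Prdm1 differed by more than the sum of their SDs. Per length, the Foxp3 level is a low estimate, since 31.5% of its exonic bases overlap the genes Ccdc22, Flicr, Gm36995 or Ppp1r3f, where reads are not assigned to any gene by the counting used. The share is 13.7% for Lef1, 5.83% for Gata3 and 5.4% for Bach2.

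**Figure D1:**
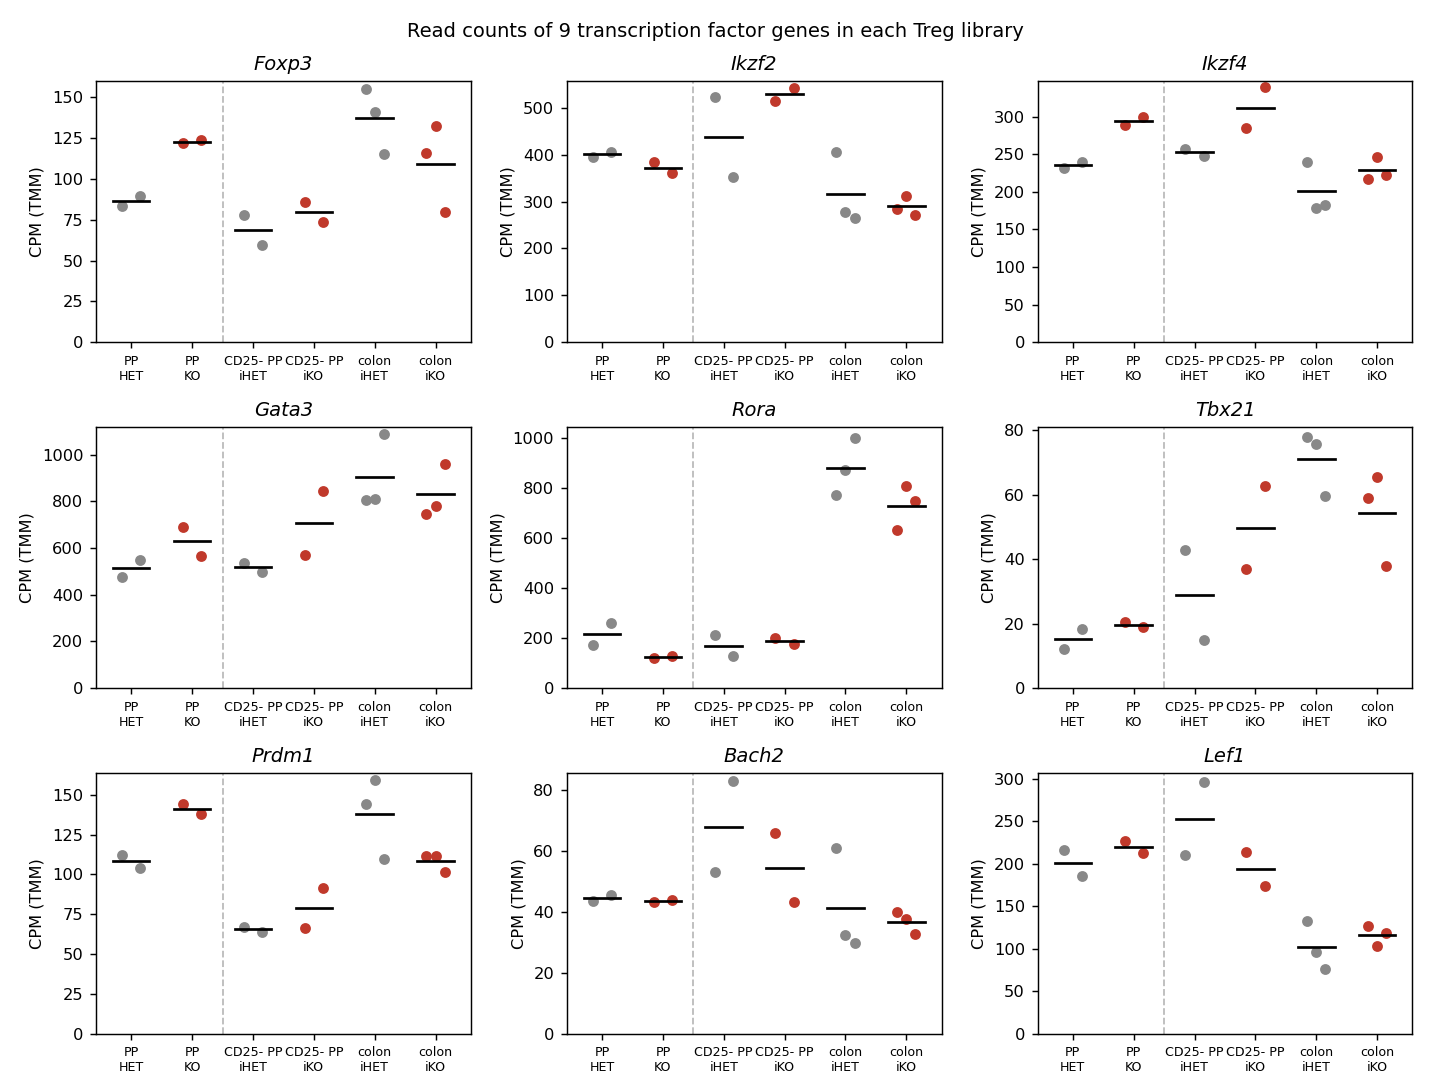
CPM of each of the 9 genes (y axes, from 0, 1 panel a gene) in every library, by group on the x axis, with grey points for HET or iHET, red points for KO or iKO and a black line at each group mean. A dashed line separates Foxp3-YFP-cre from inducible mice, which were scaled separately. Rora stands at 631 to 809 CPM in colonic iKO and 772 to 1002 CPM in colonic iHET libraries, above every CD25- PP library. Lef1 is lower in every colonic library than in every CD25- PP library.

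Promoter sequences of the genes whose levels the results below turn on are shown so that the DNA just before their start sites can be read. The 250 bases before 11 RefSeq start sites of 7 members (Ikzf2 and Ikzf4 have none in the table) were searched on both strands for the AP-1 motif TGAGTCA and the CRE-like motif TGACGTCA, to which JunB dimers bind. None of the 11 held either, while 4.46% and 1.55% of all 32851 promoters of the same length did. Motifs of the members' own families were searched as well, a choice made after the first search had been seen, and are in capitals where found. The forkhead motif GTAAACA was in 1 of the 11 (3.17% of all promoters), the GATA motif AGATAA in 1 (9.99%), the ROR half-site AGGTCA in 1 (14%), the T-box motif TCACACC in 0 (3.33%) and the TCF/LEF motif CTTTGA in 2 (13.8%). None of these motifs overlap in the sequences shown. A match is only a run of letters and is not shown to be bound, and no match says only that these letters are not in the window. The sequences are from RefSeq on GRCm38.p6 and are written 5′ to 3′ on the strand of the gene.
Foxp3, first start, chrX:7579426-7579675, plus strand, no match: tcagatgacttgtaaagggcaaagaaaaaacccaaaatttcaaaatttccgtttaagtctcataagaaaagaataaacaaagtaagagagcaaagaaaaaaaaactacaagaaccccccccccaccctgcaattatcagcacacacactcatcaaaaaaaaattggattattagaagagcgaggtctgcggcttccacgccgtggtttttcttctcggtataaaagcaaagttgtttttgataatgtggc
Foxp3, second start, chrX:7580233-7580482, plus strand, with the ROR half-site on either strand and the GATA motif in capitals: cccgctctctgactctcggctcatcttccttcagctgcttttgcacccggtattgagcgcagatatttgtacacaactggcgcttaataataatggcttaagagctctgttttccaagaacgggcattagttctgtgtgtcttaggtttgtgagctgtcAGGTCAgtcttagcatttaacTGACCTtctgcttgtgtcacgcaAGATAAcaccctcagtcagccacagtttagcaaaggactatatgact
Prdm1, chr10:44458749-44458998, minus strand, with the forkhead motif in capitals: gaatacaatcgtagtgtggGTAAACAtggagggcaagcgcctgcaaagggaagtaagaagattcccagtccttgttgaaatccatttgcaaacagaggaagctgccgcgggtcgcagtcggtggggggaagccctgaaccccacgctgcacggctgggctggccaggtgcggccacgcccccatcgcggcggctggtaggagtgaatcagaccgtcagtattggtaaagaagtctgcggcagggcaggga
Rora, chr9:68653536-68653785, plus strand, no match: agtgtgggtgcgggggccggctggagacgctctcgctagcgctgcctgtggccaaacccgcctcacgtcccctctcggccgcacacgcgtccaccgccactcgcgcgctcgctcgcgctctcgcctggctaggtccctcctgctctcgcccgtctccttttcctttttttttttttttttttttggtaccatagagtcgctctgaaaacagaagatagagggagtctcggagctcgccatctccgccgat
Lef1, most downstream start, chr3:131156044-131156293, plus strand, with the TCF/LEF motif on the opposite strand in capitals at both places (the other 3 Lef1 starts held no match): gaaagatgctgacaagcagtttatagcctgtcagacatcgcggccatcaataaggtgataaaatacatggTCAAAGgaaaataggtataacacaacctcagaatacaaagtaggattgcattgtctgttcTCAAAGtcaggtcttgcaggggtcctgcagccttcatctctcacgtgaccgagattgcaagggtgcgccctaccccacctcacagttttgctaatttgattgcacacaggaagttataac

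In PP Tregs of the Foxp3-YFP-cre line, Foxp3 and Prdm1 rose and Rora fell, by less than 2-fold in each case. These are 3 of the 9 genes, 2 higher and 1 lower, where 3.35% of all 12224 genes tested passed a false discovery rate (FDR) of 0.05 in edgeR's quasi-likelihood test, 0.990% as higher and 2.36% as lower. Groups of 2 did not overlap for 7 of the 9, but that was so for 43.6% of all genes. Foxp3 reached 83.2 and 89.6 CPM in the HET pair and 122 and 124 CPM in the KO pair, with both KO libraries above both HET libraries. Its log2 fold change was 0.51 ± 0.082 (SE; 1.42-fold; edgeR FDR = 0.0167; higher in 2 of 2 KO libraries). The Eos gene Ikzf4 was at 231 and 240.3 CPM in the HET pair and 288 and 299 CPM in the KO pair, also without overlap, and its log2 difference of 0.32 ± 0.075 did not pass (FDR = 0.0695), although it did by the exact test used in the study (FDR = 0.0397) and by DESeq2 (FDR = 0.00987). The Helios gene Ikzf2 was at 396 and 406 CPM in the HET pair and 384 and 361 CPM in the KO pair, and the 95% interval of its log2 difference, -0.29 to 0.076, includes 0.

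Among the subset factors, Rora read 173 and 259.9 CPM in the HET pair but 119 and 126 CPM in the KO pair. The KO libraries are close to each other and below both HET libraries, which lie further apart. The log2 fold change of Rora was -0.82 ± 0.17 (FDR = 0.0398; 1.76-fold lower in KO), and it rests in part on HET replicate 2, without which it was -0.49 (FDR = 0.102), whereas without HET replicate 1 it was -1.08 (FDR = 0.0168). HET replicate 2 is the library that is high in heat-shock genes, and it was also the highest of the 4 in the macrophage genes Csf1r (8.33 and 31.9 CPM in the HET pair, 16.5 and 11.1 CPM in the KO pair) and C1qb (6.88 and 19.8 CPM in the HET pair, 12.8 and 8.01 CPM in the KO pair). The part of these in the level of Rora was not tested. Gata3 was at 476 and 549.8 CPM in the HET pair and 692 and 565 CPM in the KO pair, and Tbx21 at 12.1 and 18.4 CPM in the HET pair and 20.4 and 18.8 CPM in the KO pair. Both were somewhat higher in KO libraries without passing, with 95% intervals of 0.019 to 0.57 for Gata3 (FDR = 0.317) and -0.11 to 0.84 for Tbx21 (FDR = 0.520) on the log2 scale.

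Of the factors that separate effector from resting Tregs, Prdm1 measured 112 and 104 CPM in the HET pair and 144 and 138 CPM in the KO pair, with no overlap (log2 fold change 0.38 ± 0.08, edgeR FDR = 0.0441, 1.30-fold). Bach2 hardly differed, at 43.5 and 45.6 CPM in the HET pair and 43.1 and 43.8 CPM in the KO pair, with a 95% interval of -0.27 to 0.20. Lef1 was at 217 and 185 CPM in the HET pair and 228 and 213 CPM in the KO pair, with overlapping groups and an interval of -0.084 to 0.35. The 3 calls are close to the threshold. Leaving out any single library left log2 fold changes of 0.46 to 0.57 for Foxp3 and 0.33 to 0.44 for Prdm1, but Foxp3 passed only without KO replicate 1 (edgeR FDR range 0.0451 to 0.189), Prdm1 passed in none of these fits (FDR 0.127 to 0.258) and Rora only without HET replicate 1.

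Genes known to go with each factor were counted on lists written with earlier results of these data known. Over all genes tested, 3.35% passed in this comparison. Of 13 Treg signature genes around Foxp3, 4 rose in KO and none fell: Socs2, a feedback inhibitor of cytokine signalling (1.27 on the log2 scale), Il2ra, the IL-2 receptor α chain (0.73), Gpr83 (0.62) and Lrrc32, which encodes the TGF-β docking protein GARP (0.48). The list's median log2 fold change was 0.35, beside 0.0030 over all genes. Of the 17 factors known to act on the Foxp3 gene, 0 passed (median -0.016), and the largest differences were Nfatc1 at -0.31 (FDR = 0.115) and Tet2 at 0.24 (FDR = 0.392). Of the ST2+ Treg genes that go with Gata3, 5 of 6 were tested and 1 fell, the chemokine receptor gene Ccr8 (-0.56). Of the genes of Tregs with a type 17 programme, 7 of 9 were tested and 2 rose, the chemokine receptor genes Ccr6 (1.13, from 58.7 to 64.8 CPM in HET to 133 to 138 CPM in KO) and Ccr2 (0.47). Of the T-bet genes, 10 of 11 were tested and Cxcr3, a chemokine receptor gene that T-bet is known to activate, rose (0.72).

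Of 11 effector Treg genes, 1 rose, the inhibitory receptor gene Havcr2 (1.16), and 2 fell, Gzmb, which encodes granzyme B (-2.73), and the inhibitory receptor gene Tigit (-0.50). Of 10 resting and lymphoid genes, 2 rose, the IL-7 receptor gene Il7r (0.56) and the survival gene Bcl2 (0.52). The median log2 fold changes were -0.024 and -0.11. Neither list had a common direction. Of 7 genes of follicular regulatory T (Tfr) cells, 6 fell, among them Sostdc1 (-4.95) and Ascl2 (-2.97).

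Other cell types moved with the same contrast. Of 8 epithelial markers, 6 fell in KO (summed level 149 to 179 CPM in HET and 63.3 to 73.1 CPM in KO), and 1 of 5 plasma cell markers did (Sdc1; sums 333 to 406 and 340.1 to 427 CPM). Of 7 markers of CD8 T, NK and innate lymphoid cells, 4 were tested and 2 fell: Kit, from 15.7 to 17.9 to 1.94 to 3.04 CPM, and Klrb1c, from 19.2 to 21.8 to 5.97 to 6.28 CPM, while Il5 was at 0 in all 4 libraries. None of 7 B cell markers passed (sums 178 to 213 and 102 to 160.4 CPM) and none of 7 myeloid markers (sums 185 to 268 and 182 to 233 CPM). Rora is also used by innate lymphoid cells and Prdm1 by plasma cells and epithelium, and the part of other cells in these differences was not tested.

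In CD25- PP Tregs after induced deletion, none of the 9 genes passed, and none of all 17079 genes tested did by the quasi-likelihood test (0%). Junb, the deleted gene, had the lowest p-value but also did not pass (log2 difference -2.44, edgeR FDR = 0.094). The lack of a call therefore does not show that the 9 genes were unchanged. At an unadjusted p under 0.05 there were 0 of the 9, and 618 of all genes (3.62%), and 0 of the 9 passed by the exact test or DESeq2, which called 43 and 35 genes. For Ikzf4 and Gata3 the groups did not overlap, as for 32.1% of all genes. Ikzf4 was at 258 and 247 CPM in iHET and 285 and 339 CPM in iKO (log2 difference 0.30, 95% interval -0.034 to 0.63), and Gata3 at 537 and 496 CPM in iHET and 568 and 844 CPM in iKO (0.44, -0.044 to 0.93). For Gata3 the difference comes mainly from iKO replicate 2, the library with high heat-shock genes, and it was 0.14 without it.

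Foxp3 was at 77.9 and 59.7 CPM in iHET and 85.7 and 73.6 CPM in iKO, with overlapping groups (log2 difference 0.20, 95% interval -0.22 to 0.62). Rora, at 211 and 128 CPM in iHET and 199 and 174 CPM in iKO, had an interval of -0.444 to 0.71 around 0.13. The fall fitted in PP KO Tregs, -0.82, lies outside it, but the 95% interval of that fall, -1.20 to -0.436, overlaps it narrowly. Each interval assumes the spread between libraries of its own fit. The difference between both experiments was not tested because the mice, gates and sequencing differed. Tbx21 varied most within a group, with 42.8 and 14.8 CPM in iHET and 36.9 and 62.6 CPM in iKO. Its log2 difference of 0.78 (interval -0.42 to 1.98) became 1.75 (FDR = 0.0280) when iHET replicate 1 was left out, which leaves 1 iHET library that is assumed to vary like the others.

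The other 4 genes overlapped between genotypes. Ikzf2 was at 524 and 353 CPM in iHET and 514 and 543 CPM in iKO, and Prdm1 at 67.3 and 63.6 CPM in iHET and 66.6 and 91.4 CPM in iKO (intervals -0.22 to 0.75 and -0.17 to 0.69). The resting-cell factors pointed the other way without passing, with Lef1 at 210.1 and 297 CPM in iHET and 214 and 174 CPM in iKO (-0.88 to 0.10) and Bach2 at 52.9 and 83.0 CPM in iHET and 65.7 and 43.2 CPM in iKO (-1.0 to 0.35). No gene of the lists that go with the factors passed in this comparison, in which the resting list had a median of -0.21 and the ST2+ list of 0.49, and the largest differences of these lists were S1pr1, a receptor gene for exit from lymphoid organs, at -0.69 and Klrg1 at 0.55. The summed levels of epithelial markers were 159 to 327 CPM in iHET and 140.5 to 205 CPM in iKO, and none of the 8 passed.

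In colonic Tregs, fitted with cage as a second factor, read from the replicate number, none of the 9 genes passed after induced deletion, and 1 of all 16313 genes did (0.00613%), which was Junb. Unadjusted p-values were under 0.05 for 3 of the 9 (Foxp3, Tbx21 and Prdm1, all lower in iKO), beside 3.87% of all genes, and the groups of 3 overlapped for all 9, while they did not for 8.35% of all genes. The colonic groups of Foxp3 were at 155, 141 and 115 CPM in iHET and 116, 133 and 79.8 CPM in iKO, each iKO library below the iHET library of the same number (log2 difference -0.35 ± 0.12, edgeR FDR = 0.947). Tbx21 was at 77.8, 75.6 and 59.6 CPM in iHET and 59.1, 65.6 and 37.9 CPM in iKO, again lower within each number (-0.42 ± 0.13, edgeR FDR = 0.947). Prdm1 was at 144, 159 and 109.9 CPM in iHET and 112, 112 and 102 CPM in iKO, likewise lower in 3 of 3 pairs (-0.33 ± 0.11, edgeR FDR = 0.947). The lowest colonic Foxp3 and Tbx21 values are those of iKO replicate 3, which was also the highest of the 6 colonic libraries in epithelial genes, with 95.1, 289 and 48.8 CPM of Krt8 in iHET and 36.1, 226 and 498 CPM in iKO. Without that library the log2 differences were -0.26 for Foxp3 and -0.30 for Tbx21. That the number stands for the cage is an assumption, and none of these values passed without the term either.

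Rora was at 772, 875 and 1002 CPM in colonic iHET and 631, 809 and 749.8 CPM in iKO Tregs, with overlapping groups and a 95% interval of -0.56 to 0.0041. Gata3, at 807, 811 and 1088 CPM in iHET and 746, 782 and 959 CPM in iKO, had the narrowest interval of the 9, -0.37 to 0.13. Ikzf4 at 239.9, 179 and 183 CPM in iHET and 217, 246 and 223 CPM in iKO and Lef1 at 132, 96.1 and 76.4 CPM in iHET and 127, 103 and 118 CPM in iKO had positive differences, 0.20 (-0.16 to 0.56) and 0.22 (-0.16 to 0.61). Ikzf2 at 406, 277 and 265 CPM in iHET and 285, 311 and 272 CPM in iKO and Bach2 at 61.0, 32.4 and 29.8 CPM in iHET and 39.9, 37.5 and 32.7 CPM in iKO had differences near 0, -0.11 (-0.50 to 0.29) and -0.094 (-0.60 to 0.41). In both genes iHET replicate 1, the male of its group, was the highest of the 6 colonic libraries. None of the listed genes passed in the colon, in which the effector list had a median log2 difference of -0.28 and the resting list of 0.23. The largest differences were Gzmb (-1.36) within the effector list and Id3 (0.67) within the resting list. Epithelial markers summed to 278 to 1079 CPM in iHET and 193 to 1984 CPM in iKO libraries and none of the 8 passed.

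**Figure D2:**
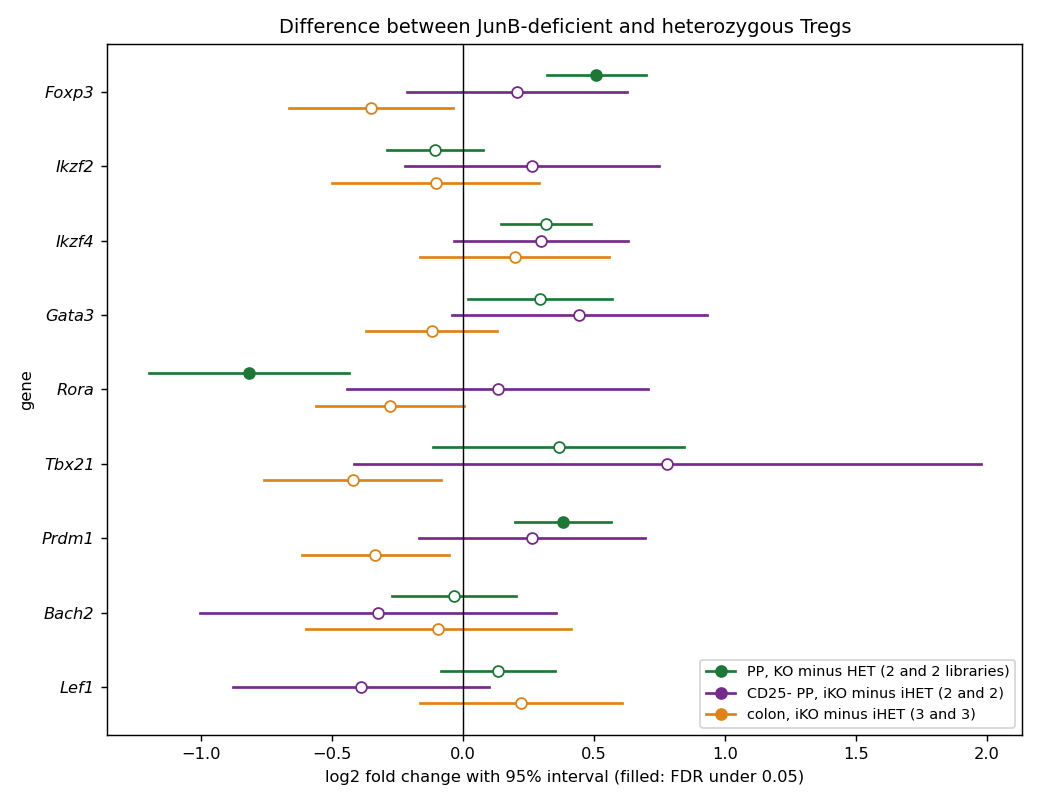
Log2 fold change of each of the 9 genes (y axis) with its 95% interval (x axis) in the 3 genotype comparisons, coloured by comparison, with filled points at FDR under 0.05. Only Foxp3, Rora and Prdm1 in PP Tregs are filled, and most intervals of the induced deletions cross 0.

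The clearest differences of these factors were between organs. In the 10 libraries of the inducible line, 7 of the 9 genes differed between colonic and CD25- PP Tregs over both genotypes, 4 higher (Rora, Prdm1, Foxp3 and Gata3) and 3 lower in the colon (Lef1, Ikzf2 and Ikzf4), while 17.3% of all 18626 genes did, 1870 of them higher and 1357 lower. The colonic libraries came from 2 males and 4 females and the CD25- PP libraries from 2 of each sex. Groups did not overlap for 4 of the 9, Rora, Prdm1, Ikzf4 and Lef1, beside 16.4% of all genes. Markers of other cells moved in both directions. Of 7 B cell markers 2 were lower and 0 higher in the colon. Of 6 tested markers of CD8 T, NK and innate lymphoid cells, 3 were higher and 2 lower. Among T cell genes, Cd3e was at 786 to 944 CPM in colonic and 1013 to 1121 CPM in CD25- PP libraries. Trac was at 1039 to 1373 and 1536 to 1601 CPM, and Cd4 at 1022 to 1187 and 891 to 1008 CPM. Of 8 epithelial markers 5 were higher in the colon (summed level 193 to 1984 CPM, against 140.5 to 327 CPM in CD25- PP, both genotypes), of 7 myeloid markers 4 were (sums 124 to 379 and 85.5 to 115 CPM), and of 8 early genes that rise when tissue is dissociated 6 were (sums 5799 to 12577 and 3510.4 to 6919 CPM), while Dispase was used for the colon alone. The sums of myeloid markers did not overlap between organs, and those of epithelial markers and early genes did. Their part in the differences was not tested.

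Rora had the largest change of the 9 and the 31st lowest p-value of all genes. It lay at 211 and 128 CPM in CD25- PP iHET and 199 and 174 CPM in iKO libraries, and at 772, 875 and 1002 CPM in colonic iHET and 631, 809 and 749.8 CPM in iKO libraries. The lowest colonic library was above the highest PP library by a wide margin, and the log2 fold change was 2.17 ± 0.16 (4.51-fold, edgeR FDR = 6.55e-05). It passed in every fit with a library left out, at 2.02 to 2.39. Gata3 was at 537 and 496 CPM in CD25- PP iHET and 568 and 844 CPM in CD25- PP iKO and at 807, 811 and 1088 CPM in colonic iHET and 746, 782 and 959 CPM in colonic iKO libraries. The groups overlap through CD25- PP iKO replicate 2, and the log2 fold change of 0.52 ± 0.14 (edgeR FDR = 0.0354, 1.43-fold) did not pass when colonic iHET replicate 3, colonic iKO replicate 2 or 3, either CD25- PP iHET library or CD25- PP iKO replicate 1 was left out (FDR range over all 10 fits 0.0265 to 0.119). It also did not pass with the replicate number as a block (FDR = 0.0787), a term that holds sex, since number 1 is the male in every group of this line.

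Genes of innate lymphoid cells that also use Rora and Gata3 were higher in the colon too. Over both genotypes, Kit was at 75.3 to 218 CPM in colonic and 14.2 to 22.6 CPM in CD25- PP libraries, Il13 at 1.14 to 6.35 and 0.486 to 0.761 CPM, and Il5 at 0.937 to 6.56 and 0.0364 to 0.206 CPM, the last of these at or near the limit of 3 counts in PP. Of the same list Klrb1c was lower in the colon and Ncr1 was at or near 0 throughout. Cd8a, also of this list, was at 0.689 to 1.14 CPM in colonic and 2.13 to 23.2 CPM in CD25- PP libraries. The part of innate lymphoid cells in the levels of Rora and Gata3 was not tested. Tbx21 was at 42.8 and 14.8 CPM in CD25- PP iHET and 36.9 and 62.6 CPM in CD25- PP iKO and 77.8, 75.6 and 59.6 CPM in colonic iHET and 59.1, 65.6 and 37.9 CPM in colonic iKO, overlapping between organs. Its log2 difference of 0.71 ± 0.29 did not pass (FDR = 0.122), but did without CD25- PP iHET replicate 1 (1.21, FDR = 0.0160).

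Foxp3 was higher in colonic than in CD25- PP Tregs, by 0.73 ± 0.16 on the log2 scale (1.65-fold, edgeR FDR = 0.0136). Per group it ran from 68.8 ± 12.9 CPM (SD, n = 2) in CD25- PP iHET over 79.6 ± 8.57 (n = 2) in CD25- PP iKO and 109 ± 27.0 (n = 3) in colonic iKO to 137 ± 20.4 (n = 3) in colonic iHET, and no neighbours in that order differ by more than the sum of their SDs. The call was lost without CD25- PP iHET replicate 2 (FDR = 0.0698) and without CD25- PP iKO replicate 2 (FDR = 0.0671). Both Ikaros-family partners were lower in the colon, where Ikzf2 was at 406, 277 and 265 CPM in iHET and 285, 311 and 272 CPM in iKO, against 524 and 353 CPM in iHET and 514 and 543 CPM in iKO in CD25- PP (-0.67 ± 0.15, edgeR FDR = 0.0137). This call was lost without CD25- PP iHET replicate 1 (FDR = 0.0639) and without CD25- PP iKO replicate 2 (FDR = 0.0609). Ikzf4 was at 258 and 247 CPM in iHET and 285 and 339 CPM in iKO in CD25- PP and at 239.9, 179 and 183 CPM in iHET and 217, 246 and 223 CPM in iKO in the colon, with every colonic library below every PP library. Its small log2 change of -0.39 ± 0.11 (FDR = 0.0336) kept its direction but passed only without colonic iHET replicate 1 among the 10 fits with a library left out (FDR range 0.00617 to 0.157). With the block it did not pass either (FDR = 0.104).

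Prdm1 rose and Lef1 fell in the colon with no overlap. Prdm1 was at 67.3 and 63.6 CPM in CD25- PP iHET and 66.6 and 91.4 CPM in CD25- PP iKO and at 144, 159 and 109.9 CPM in colonic iHET and 112, 112 and 102 CPM in colonic iKO libraries (0.76 ± 0.13, 1.70-fold, edgeR FDR = 0.00423). Lef1 was at 210.1 and 297 CPM in iHET and 214 and 174 CPM in iKO in CD25- PP and at 132, 96.1 and 76.4 CPM in iHET and 127, 103 and 118 CPM in iKO in the colon (-1.03 ± 0.16, 2.04-fold lower, edgeR FDR = 0.00291). Both passed in each of the 10 fits with a library left out. Bach2 pointed the same way as Lef1 without passing (-0.65 ± 0.23, FDR = 0.0778), from 52.9 and 83.0 CPM in iHET and 65.7 and 43.2 CPM in iKO in CD25- PP to 61.0, 32.4 and 29.8 CPM in iHET and 39.9, 37.5 and 32.7 CPM in iKO in the colon, and passed without colonic iHET replicate 1 (-0.85, FDR = 0.00948). Of the B cell markers, in which Bach2 is also used, 2 of 7 were lower in the colon, Pax5 and Cd22, with overlapping sums of 49.7 to 107 CPM in colonic and 89.7 to 120.1 CPM in CD25- PP libraries. Of 4 plasma cell markers tested, cells in which Prdm1 is used, 3 were higher in the colon (sums of the list 379 to 449.9 against 197 to 257 CPM). Of these, Jchain was at 10.7 to 94.9 CPM in the colon and 4.46 to 20.7 CPM in CD25- PP, overlapping through colonic iKO replicate 3, while Mzb1 was at 0.619 CPM or less in all 10 libraries. Most of each plasma cell sum was Xbp1, at 293 to 368 CPM in the colon and 178 to 221 CPM in CD25- PP. Derl3 overlapped, at 2.13 to 8.60 and 5.06 to 6.74 CPM. The part of these cells was not tested.

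**Figure D3:**
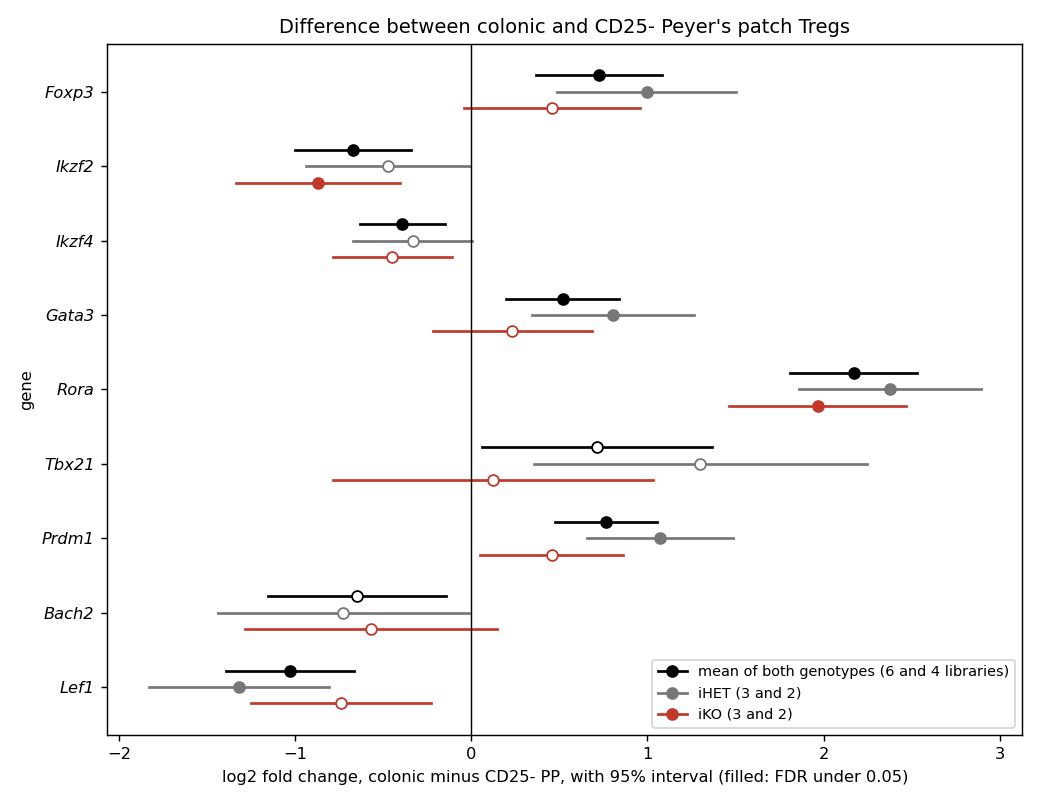
Log2 fold change of colonic over CD25- PP Tregs (x axis, with 95% interval) for each gene (y axis), averaged over genotypes in black, in iHET in grey and in iKO in red, with filled points at FDR under 0.05. Rora stands at 2.17 with both genotypes filled. The red points of Foxp3, Gata3, Rora, Tbx21, Prdm1, Bach2 and Lef1 lie nearer to 0 than the grey ones, and those of Ikzf2 and Ikzf4 lie further from 0.

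Taken genotype by genotype, 5 of the 9 genes passed between organs in iHET Tregs (Foxp3, Gata3, Rora and Prdm1 higher and Lef1 lower in the colon; 6.45% of all genes, 4.22% higher and 2.23% lower) and 2 in iKO Tregs (Rora higher and Ikzf2 lower; 4.07% of all genes, 2.48% higher and 1.59% lower). Gata3 in iHET (edgeR FDR = 0.0485) and Ikzf2 in iKO (edgeR FDR = 0.0498) were just under the threshold. Both calls, and that of Foxp3 in iHET, were lost in some fits with a library left out. Over these fits the differences were 0.65 to 0.88 for Gata3, -0.94 to -0.82 for Ikzf2 and 0.82 to 1.22 for Foxp3. The differences in iHET and iKO were 1.00 and 0.46 for Foxp3, 0.80 and 0.23 for Gata3, 2.38 and 1.97 for Rora, 1.30 and 0.12 for Tbx21 and 1.07 and 0.46 for Prdm1. For Lef1 they were -1.32 and -0.74, for Bach2 -0.73 and -0.57, for Ikzf2 -0.47 and -0.87 and for Ikzf4 -0.33 and -0.45. These unequal counts do not show that the organs differ less in iKO, since the interaction of organ and genotype passed for none of the 9 genes and none of all 18626 (0%) by edgeR's quasi-likelihood test, and for 2 genes each by the likelihood ratio test and DESeq2. At an unadjusted p under 0.05 the interaction held for 1 of the 9, Prdm1 (-0.62, 95% interval -1.18 to -0.049, edgeR FDR = 1.000), beside 3.34% of all genes. The widest interval was that of Tbx21, -2.46 to 0.11, and the narrowest that of Ikzf4, -0.60 to 0.37.

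Genes that go with the factors were counted in the organ comparison too, with no test of the lists. Of all genes tested, 17.3% passed in it. Of 6 ST2+ Treg genes, 4 were higher in the colon: Pparg, a nuclear receptor gene of tissue Tregs (3.81), the killer lectin receptor gene Klrg1 (3.55), Il1rl1, which encodes ST2 itself (2.71), and Ccr8 (1.05). Of 9 type 17 Treg genes, 7 were higher and 1 lower, with the largest changes in the cytokine gene Il17f (4.06), Ccr2 (2.88), the IL-23 receptor gene Il23r (2.44) and the cytokine gene Il17a (1.88). Of 13 Treg signature genes, 8 were higher and 3 lower, led by Socs2 (2.26), Tnfrsf9 (1.74), Il2ra (1.67), on which the PP cells were gated, and Izumo1r (-1.49).

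Of 11 T-bet and type 1 genes, 3 were higher and 2 lower. Eomes, a T-box relative of Tbx21, was lower (-3.31), as was the chemokine gene Ccl5 (-2.55), while Ifng (1.40) and Runx3 (1.25) were higher. Of 11 effector genes, 5 were higher and 1 lower, led by Havcr2 (3.16), Irf4, a partner of AP-1 (1.35), the adhesion receptor gene Cd44 (1.18) and the DNA-binding inhibitor gene Id2 (0.91). Of 10 resting genes, 2 were lower, Tcf7, the close relative of Lef1 (-1.44), and Bcl2 (-0.63), and 1 was higher, Il7r (0.51). The median log2 fold changes were 1.88 for the ST2+ list, 1.60 for the type 17 list, 0.44 for the effector list and -0.20 for the resting list, beside 7.2e-04 over all genes. Of 7 Tfr genes 5 were lower in the colon, with Sostdc1 at -5.96, Ascl2 at -3.39, Cxcr5 at -2.10 and Bcl6 at -1.31.

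**Figure D4:**
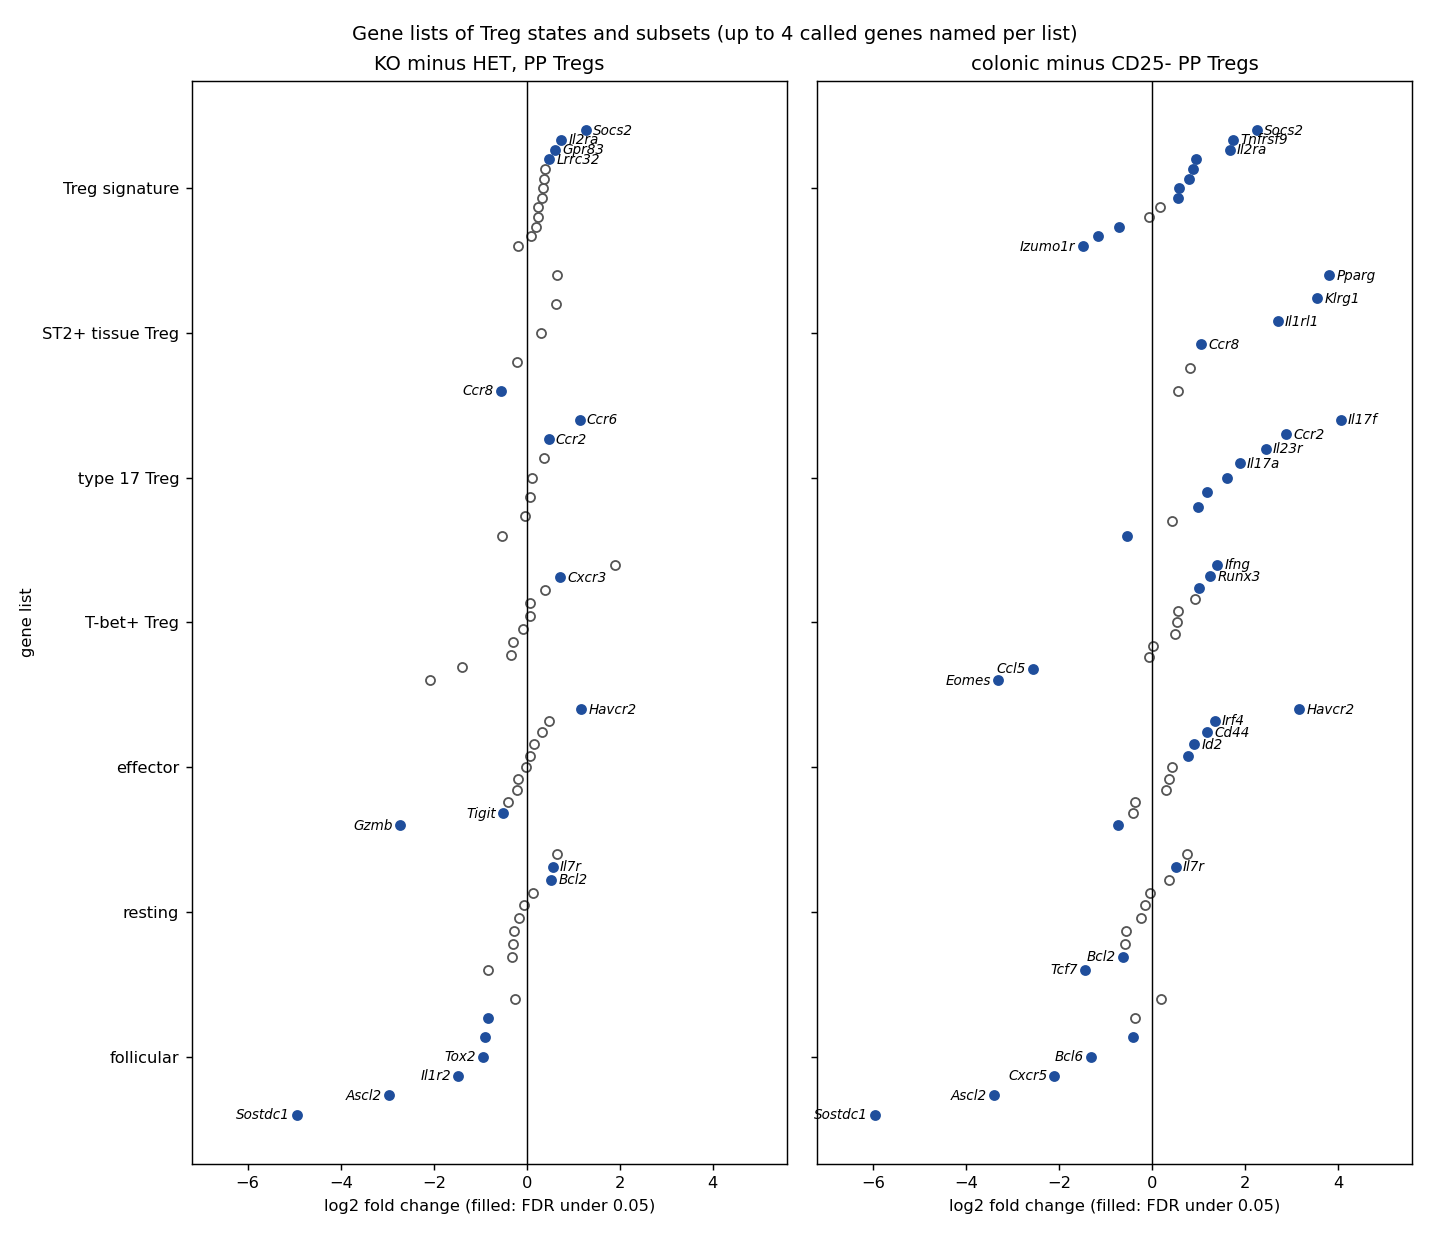
Log2 fold changes (x axes) of the genes of 7 lists (y axis) for KO minus HET in PP Tregs (left) and colonic minus CD25- PP Tregs (right), with filled points at FDR under 0.05 and open points otherwise. In the right panel the filled genes of the ST2+ list all lie above 0, and in both panels the filled Tfr genes lie below 0.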

How the data were processed

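Tregs were profiled by RNA-seq in 14 libraries. Per the labels and the study's methods, RNA was amplified with the Clontech SMARTer v4 kit, and the authors trimmed reads with Trim Galore, aligned them to mm10 with STAR and assigned them to genes with featureCounts at default settings, without strand, and used only the forward reads of the inducible line. The deposited values are whole-number counts per gene without normalization or a filter. Reads in 2 overlapping genes are left unassigned by these settings, so levels of overlapped genes are low estimates.

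Gene symbols, exon lengths and overlaps came from GENCODE M21 on GRCm38 by identifier, where 55394 of 55487 and 53706 of 53801 IDs matched. Genes with at least 1 CPM in as many libraries as the smallest group were kept, and counts were scaled by TMM and tested, in place of the study's exact and likelihood ratio tests, with edgeR 4.0.16's quasi-likelihood test (limma 3.58.1, R 4.3.3) with a prior count of 1. Adjusted values are Benjamini-Hochberg FDR over all genes tested in a comparison, with a threshold of 0.05. PP and CD25- PP Tregs were fitted by genotype, and colonic Tregs by genotype and mouse number, since the study housed 1 iHET and 1 iKO mouse per cage; that the number stands for the cage is an assumption. Same-numbered colonic libraries deviated together with r of 0.160, 0.294 and -0.021 across genes, so the block rests on the study's design and not on these values. The organ difference and the interaction were fitted over 4 groups of 10 libraries. Both tables were scaled and tested separately. Intervals are 95% intervals of the fitted coefficient.

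The members and the lists were chosen with earlier results of these data known. All 9 members are named in each comparison. From each list, up to 4 genes past the threshold with the largest change are named, and up to 2 where none passed, and Tfr genes likewise, while marker genes are named where a member is used by that cell type. AP-1 and CRE motifs and the 2 genes nearest to each member were set by the same rules. Alternatives were the tests of the study, DESeq2 1.42.0, other scalings and filters, a prior count of 0.25, the replicate block and leaving out each library. Some listed genes are not reported here and were left out of the list counts. The study gives the size of the colonic groups in animals and that of the PP groups only in samples. The labels do not state for each library that it came from a separate mouse, so p-values measure the spread between these libraries. Reads carry no molecular identifiers, so the limit of 3 counts covers counting error only. Figures used matplotlib 3.10.9 (Python 3.11.15).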

Additional observations from a re-analysis of the deposited data

How the results depend on the processing

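Of 522 log2 fold changes of the 9 genes under another test, scaling, filter, prior count or block, none changed sign, 496 kept their side of the threshold, 20 passed only there and 6 no longer passed. In PP Tregs, 689 genes passed by the exact test, 696 by DESeq2, 1305 without a filter and 1015 with the replicate block, and 5 members passed without a filter. In CD25- PP Tregs the counts were 43 by the exact test, 35 by DESeq2, 232 without a filter and 1 each with at least 10 counts in every library and in the fit of 10 libraries, with 1 member without a filter. In the colon they were 25 by the likelihood ratio test, 50 by DESeq2 and 24 without a filter, and the fit with no replicate block gave 1 gene and 0 members. Between organs in iHET they were 1988, 2504 and 2848 by the same 3 settings, and in iKO 1622, 2233 and 2348, and 430 with the replicate block, where 1 member passed, against 4 by DESeq2. For the interaction 2 genes passed by the likelihood ratio test, 2 by DESeq2 and 282 without a filter, with 1 member there. Prdm1 in PP did not pass with upper-quartile scaling (FDR = 0.0578), and the organ calls of Ikzf4 and Gata3 did not with the replicate block (FDR = 0.104 and 0.0787). Same-numbered libraries deviated together with r of 0.159 in PP, 0.073 in CD25- PP and -0.069 to 0.124 between organs, and in the inducible line the number also separates the male from the females.

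Leaving out 1 library at a time gave 54 to 313 genes and 0 to 1 members in PP, 0 to 128 and 0 to 1 in CD25- PP, 0 to 8 genes in the colon, 1514 to 3959 and 4 to 8 between organs, 137 to 1700 and 1 to 7 between organs in iHET, and 74 to 1096 and 1 to 3 in iKO. Signs turned for Bach2 in PP (-0.068 to 0.0015), for Rora (-0.19 to 0.55) and Bach2 (-0.66 to 0.033) in CD25- PP, for Ikzf2 (-0.25 to 0.10) and Bach2 (-0.26 to 0.17) in the colon, for Gata3 (-0.015 to 0.55) and Tbx21 (-0.20 to 0.56) between organs in iKO, and for Ikzf4 (-0.24 to 0.031) and Bach2 (-0.21 to 0.55) in the interaction. The cause was not tested. Leaving a library out leaves groups of 1 or 2, and a lone library is assumed to vary like the others. Depth sets a limit of 3 counts, below every value of the 9 genes.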

Other observations

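Relatives of the 9 factors in the same families also differed between organs, a comparison in which 17.3% of all genes passed. Of 13 tested, 2 were higher and 5 lower in the colon, with the largest changes in Eomes (-3.31 on the log2 scale), Tcf7 (-1.44), the TCF gene Tcf7l2 (1.15) and Gata1 (-1.09). In PP KO Tregs 1 of 12 passed, Tcf7l1 (1.54, FDR = 0.0467), beside 3.35% of all genes. Of 17 factors known to act on the Foxp3 gene, 2 were higher and 1 lower in the colon, near the share of all genes (17.3%). Those higher were Uhrf1, which helps maintain DNA methylation (1.30), and Stat5a, which carries the IL-2 signal (0.44). Nfatc1 was lower (-0.52).

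Over the 10 libraries of the inducible line, 9476 genes were ranked by how closely their centred log2 CPM followed each factor, as the root mean square difference. The 2 nearest were Atf6 (0.121) and Zfp689 (0.126) for Foxp3, Sclt1 (0.0824) and Mosmo (0.0867) for Ikzf4, and Gna12 (0.141) and Eea1 (0.142) for Ikzf2. For Gata3 they were Slc35b2 (0.112) and Aldoart1 (0.130), for Rora AC102159.1 (0.140) and Slc15a3 (0.171), and for Tbx21 Arnt2 (0.215) and Neb (0.273). For Prdm1 they were Snx9 (0.110) and Adam15 (0.127), for Bach2 Ripor2 (0.138) and Fbxo46 (0.153), and for Lef1 Bicdl1 (0.0866) and Zfp251 (0.144). The libraries fall into organ groups, so these are descriptions over 10 points.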
